A study of Drosophila melanogaster with 3 samples.

Results

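The promoters described here belong to Drosophila melanogaster genes of the non-coding RNA biotype, most of them named as long non-coding RNAs. The annotated transcription start site (TSS) of each lay over 1000 bp from the TSS of every protein-coding gene. These promoters were taken from the Ensembl annotation (release 115, assembly BDGP6.54, the coordinates of dm6) by biotype, as windows of 500 bp on each side of the gene's 5′ end. The rule uses no measured value, but the set was fixed with earlier results of these data known. There were 1785 such genes, among 18277 annotated genes on the 7 chromosomes used. Of these, 1515 carried a lncRNA name, 209 an asRNA name for antisense transcripts, and 61 another name, 27 of them records of the Su(Ste) repeats. The same biotype also holds miRNA records, whose 5′ ends are processing sites rather than start sites, and 197 hairpins and 371 mature miRNAs that met the distance rule were left out. With them the set would number 2353. Short records under other names were kept, and whether their 5′ ends are start sites was not checked. The median gene was 715 bp long and lay 4574 bp from the nearest coding TSS.

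The lists came from chromatin immunoprecipitation sequencing (ChIP-seq) of Trem in whole embryos aged 0 to 14 hours, sexes mixed. The flies were of a transgenic line, labelled strain trem, that stably expressed Trem with GFP at its C terminus. DNA was precipitated with an anti-GFP antibody, although a separate label names trem itself as the antibody. The 3 biological replicates formed 1 group, so no treatment, genotype or stage was compared, and a peak in whole embryos does not tell in which cells it arose. The control that the deposited file lists name was not analysed here.

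Trem, the product of trade embargo, is a zinc finger protein with a zinc-finger associated domain and is known for its role in forming meiotic double-strand breaks in oocytes. Long non-coding RNAs are typically transcribed by RNA polymerase II from promoters of their own but are not translated. In flies they include roX1 and roX2, which guide the dosage compensation complex to the male X chromosome, the flamenco transcript (flam), which is cut into piRNAs that silence transposons in the ovarian soma, and the primary transcripts from which miRNAs and snoRNAs are released. The distance rule keeps the windows of these promoters apart from windows of 500 bp around coding start sites.

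The sequences below surround the summits, the point of each peak with the highest signal, at members on which the results turn. They comprise the strongest peak at CR45433, the peak at the miRNA host CR31044, the peaks at the dosage compensation RNAs roX1 and roX2, the piRNA precursor flam, the heat shock RNA Hsromega and the snoRNA host Uhg3, and the single peak that served 4 lncRNA genes. Each run was read 5′ to 3′ from the plus strand of the RefSeq genome of dm6 and holds 121 bases, centred on the summit of the IDR list. Capitals mark 2 sets of letters: TGCCAAC or its reverse complement GTTGGCA, the 7-base word that set the strongest Trem peaks of the whole list apart from the weakest, and GGTCACACT, motif 1 of the promoter factor M1BP. Both are described with the other motifs further on.
CR45433, chr3L:19861300-19861420: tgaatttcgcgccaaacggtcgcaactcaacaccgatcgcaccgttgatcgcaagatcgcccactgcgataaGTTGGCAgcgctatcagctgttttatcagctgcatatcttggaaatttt
CR31044, chr3R:29214376-29214496: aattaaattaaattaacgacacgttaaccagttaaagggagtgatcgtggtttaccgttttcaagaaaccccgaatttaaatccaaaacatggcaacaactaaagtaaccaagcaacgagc
roX1, chrX:3862620-3862740: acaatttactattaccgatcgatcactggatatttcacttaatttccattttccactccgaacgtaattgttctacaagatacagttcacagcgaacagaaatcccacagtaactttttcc
roX2, chrX:11578980-11579100: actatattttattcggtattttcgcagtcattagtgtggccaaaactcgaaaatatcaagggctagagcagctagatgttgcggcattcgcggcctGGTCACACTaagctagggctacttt
flam, chrX:21631663-21631783: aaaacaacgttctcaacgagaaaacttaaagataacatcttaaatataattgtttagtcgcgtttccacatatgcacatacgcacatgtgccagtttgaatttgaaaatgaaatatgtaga
Hsromega, chr3R:21296186-21296306: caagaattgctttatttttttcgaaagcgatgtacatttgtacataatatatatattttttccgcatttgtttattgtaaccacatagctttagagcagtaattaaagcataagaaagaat
Uhg3, chr2L:20647425-20647545: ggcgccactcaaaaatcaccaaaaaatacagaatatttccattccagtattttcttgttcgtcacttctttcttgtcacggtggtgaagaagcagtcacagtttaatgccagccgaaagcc
CR45637 to CR45640, chr3R:16208961-16209081: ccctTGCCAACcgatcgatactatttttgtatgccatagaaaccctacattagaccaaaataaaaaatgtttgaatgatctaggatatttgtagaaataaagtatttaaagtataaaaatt
Of these 8 peaks, the capital word occurred in that of CR45433 and in the shared one, and motif 1 in that of roX2.

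Trem peaks were sparse at these promoters. The IDR list, which the authors derived for reproducibility across replicates and which held 7477 peaks, placed a summit within 500 bp of 107 of the 1785 TSSs, or 5.99%, against 35.3% of all 16516 ncRNA and protein-coding genes. The 107 genes rested on 103 distinct strongest summits, and the 108 IDR summits within their windows were 1.44% of the list. With the miRNA records kept, 123 of 2353 windows held an IDR summit, or 5.23%, and among the 568 miRNA records alone 16 did, or 2.82%. Of the 18 members shorter than 200 bp, none held one.

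The weaker lists reached more members. In the pooled list of 30000 peaks, 454 members, or 25.4%, had a summit in the window, where the share of all genes was 52.9%. In the whole replicate lists of 30000 peaks each, 490 members had a summit in replicate 1, where the share of all genes was 52.5%. Replicate 2 gave 426, with 51.9% of all genes, and replicate 3 gave 422, with 52.1%. Replicate 1 therefore held the most. In all 3 whole lists together, 226 members had a summit every time, 708 at least once, and 1056 of the 1785 had none in any replicate, pooled or IDR list. For these joint counts the shares of all genes were not computed, so they only describe the members.

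Because each whole replicate list has the same fixed length, replicates were compared over their 7477 strongest peaks, as many as the IDR list holds. Replicate 1 then had a summit at 114 members, or 6.39%, with a share of 34.3% over all genes. Replicate 2 had 101, or 5.66%, with 35.0% over all genes. Replicate 3 had 99, or 5.55%, with 34.1% over all genes. The mean member share was 5.86% ± 0.456 (SD, n = 3). A member had such a summit in all 3 replicates in 59 cases and in any of them in 150, and all 59 had an IDR summit. The shares of all genes were not computed for these joint counts either. No member had a strong summit in every replicate and none in the IDR list.

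Single peaks at members were found again in the replicates at shares close to those of the whole IDR list. Of the 107 strongest member summits, 59 (55.1%) had a summit within 100 bp among the strongest peaks of all 3 replicates, 30 of 2 and 18 of 1, against 60.1% of all IDR summits found in all 3. By replicate, 100 of the 107 were found in replicate 1, 76 in replicate 2 and 79 in replicate 3. In the whole lists, 91 (85%) were found in all 3 replicates and the other 16 in 2, against 86.1% of all IDR summits in all 3. With a replicate left out, and IDR summits kept only where each remaining replicate had a strong summit, the count was 64 members without replicate 1, 72 without replicate 2 and 73 without replicate 3. With the same requirement over all 3 replicates it was 59, the base for these counts, so leaving out replicate 1 changed it least.

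Members were compared with other start sites over the same 3 lists. Protein-coding TSSs had a summit in 38.7, 39.5 and 38.5% of cases in replicates 1, 2 and 3, with a mean of 38.9% ± 0.543 (SD, n = 3). The member share was lower by a difference of -33.0 ± 0.793 percentage points. Many coding TSSs lie beside another coding gene, and the 8080 stand-alone ones had 22.2% ± 0.563, for a difference of -16.4 ± 0.996 points. The 763 ncRNA genes within 1000 bp of a coding TSS had 20.6% ± 0.73, for a difference of -14.7 ± 1.15 points. In the IDR list the shares were 39.8% of coding, 22.8% of stand-alone coding and 20.8% of near ncRNA TSSs. The groups did not overlap in any replicate.

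Members nevertheless held summits more often than the whole of the sequence far from coding TSSs. Every base over 1000 bp from coding TSSs (110382378 bases) was scored as if it were a TSS, and 2.24, 1.75 and 1.86% of them had a summit within 500 bp in replicates 1, 2 and 3. Member windows, assembly gaps, repeats and the 3621329 far bases of Y, where no summit of these lists lay, were all included. How much of this sequence could yield a peak was not assessed. The mean was 1.95% ± 0.255 (SD, n = 3), so the member share was higher by 3.91 ± 0.233 points, a ratio of 3.02 ± 0.193. In the IDR list that sequence had 2.06%. In the whole replicate lists the shares were 25% ± 2.14 of members and 13.4% ± 0.71 of the sequence, so the ratio was smaller there. The exact paired permutation test over replicates (two-sided sign flips) gave p = 0.25 for each of these differences and 0.25 after Benjamini-Hochberg adjustment over the 6 differences tested, which is the smallest value 3 replicates allow. No difference could therefore pass 0.05, and the size against the spread between replicates is the evidence given. The same genes were scored in every replicate, so the SDs here and below do not cover the uncertainty that comes from few genes. The labels call the replicates biological and say no more of their origin, so the spread may be partly technical.

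**Figure D1:**
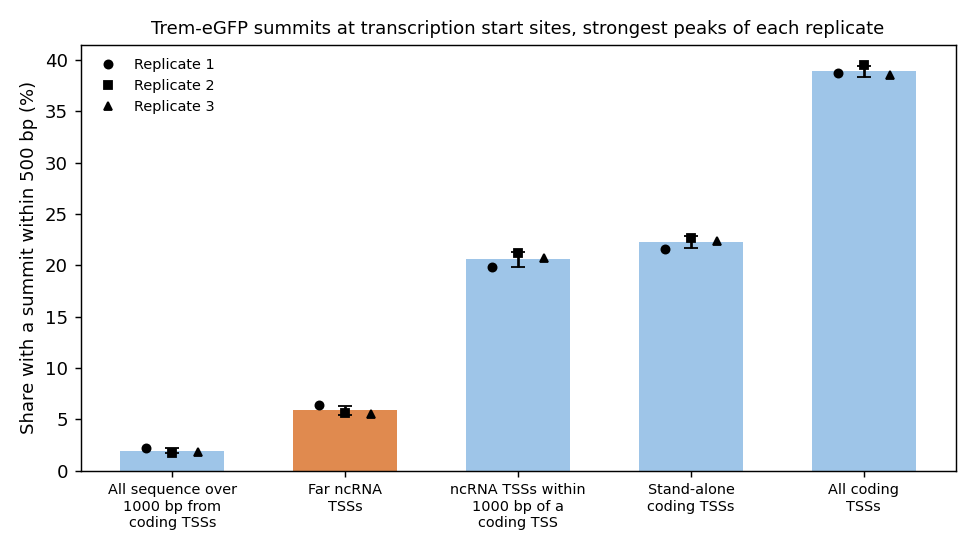
Share of positions with a Trem-eGFP summit within 500 bp (%) among the 7477 strongest peaks of each replicate. Bars give the mean, error bars the SD and black symbols the 3 replicates; far ncRNA TSSs (orange, 5.55 to 6.39%) lay above far sequence and below every other class in each replicate.

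The share fell with distance from coding genes, and so did that of the sequence. Members over 1000 to 2000 bp away (371 genes) had summits in 9.97% ± 0.467 of cases (SD, n = 3), against 3.08% ± 0.226 of the sequence at that distance. At over 2000 to 5000 bp (573 genes) the member share was 5.70% ± 0.727, against 2.43% ± 0.276. At over 5000 to 10000 bp (375 genes) it was 4.53% ± 0.267, against 2.14% ± 0.313. Beyond 10000 bp (466 genes) it was 3.86% ± 0.774, against 1.10% ± 0.23. The ratio of members to sequence was 3.24 ± 0.13, 2.36 ± 0.322, 2.14 ± 0.214 and 3.54 ± 0.474 in that order, so it did not fall steadily. The IDR counts in these bins were 38, 32, 18 and 19 genes. At the edge of the rule, 6 of 139 ncRNA genes at over 750 to 1000 bp had an IDR summit (4.32%), and 12 of 107 at over 1000 to 1250 bp did (11.2%).

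**Figure D2:**
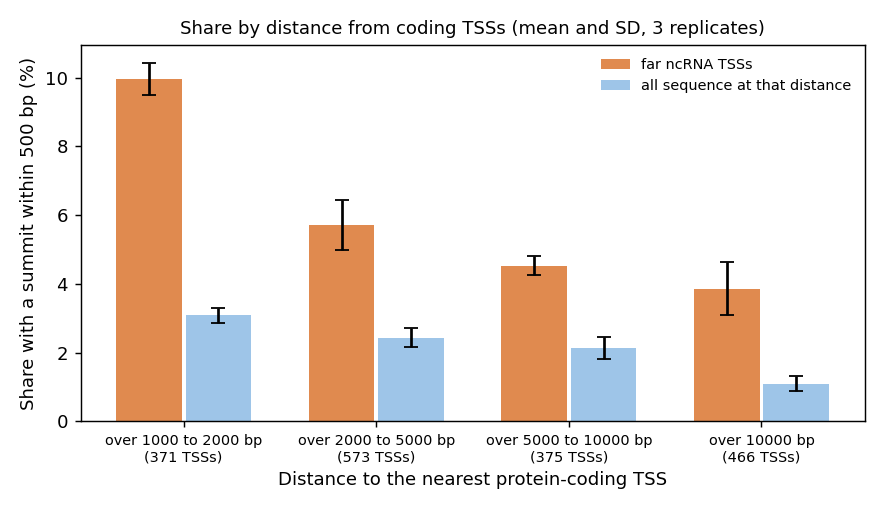
Share with a summit within 500 bp (%, mean and SD of the 3 replicates) by distance to the nearest protein-coding TSS, for far ncRNA TSSs (orange) and for all sequence at that distance (blue). Members stood above the sequence in every bin, from 9.97% against 3.08% nearest to coding genes to 3.86% against 1.10% beyond 10000 bp.

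Where a member lay relative to coding genes made a smaller difference. Intergenic members (1189) had summits in 7.06, 6.48 and 5.55% of cases in replicates 1, 2 and 3, and those inside a coding gene (596) in 5.03, 4.03 and 5.54%. The mean difference of 1.5 ± 1.3 points was close to its spread, and in replicate 3 it was 0.014 points (exact permutation p = 0.25, n = 3). In the whole lists it was 1.66 ± 3.94 points, with replicates of both signs. Among members inside coding genes, 25 of 413 on the opposite strand had an IDR summit (6.05%), 6 of 175 on the same strand (3.43%) and none of 8 within coding genes on both strands. By name, 98 of 1515 lncRNA genes (6.47%), 8 of 209 asRNA genes (3.83%) and 1 of 61 others (1.64%) had one, and none of the 27 Su(Ste) records did.

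Shares varied with exon number and between chromosomes, and neither was tested. Genes of 1 exon had an IDR summit in 74 of 1167 cases (6.34%), those of 2 exons in 23 of 475 (4.84%) and those of 3 or more in 10 of 143 (6.99%). Their mean replicate shares were 5.97% ± 0.405, 5.05% ± 0.918 and 7.69% ± 0.699 (SD, n = 3). By chromosome the mean replicate share was 5.92% ± 0.658 on 2L, 7.80% ± 0.606 on 2R, 4.3% ± 0.631 on 3L, 5.76% ± 0.634 on 3R and 7.00% ± 0.50 on X (SD, n = 3). Against the far sequence of the same arm, the ratio was highest on 2R at 4.55 ± 0.0859 and lowest on 3L at 1.82 ± 0.0231 among these 5. Chromosome 4 held only 13 members, of which 1 had an IDR summit, and replicate 2 alone gave 4 of them a strong summit (30.8%, against 7.69% in each of the others). Of the 28 members on Y none had a summit in the IDR list or among the strongest peaks of any replicate, and in those lists none of the far sequence of Y did either.

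At bound members the summit sat less tightly on the start site than at coding genes. It lay upstream in 62 of 107 cases (57.9%), at a median of -86 bp, where negative is upstream, and a median absolute distance of 224 bp. Only 21 (19.6%) were within 100 bp of the TSS. This share and the median absolute distance were close to what summits spread evenly over the window would give. The upstream share was only somewhat above such a spread, and in windows of 1000 bp on each side it was 50.0%, with a median of -1.0 bp. At the 5561 coding genes with an IDR summit, 86.1% of strongest summits were upstream, the median absolute distance was 105 bp and 47.9% were within 100 bp. The replicates gave members 61.4, 60.4 and 58.6% upstream, with a mean of 60.1% ± 1.42 (SD, n = 3), against 83.6% ± 2.51 of coding genes. Within 100 bp lay 23.4% ± 6.09 of member summits and 47.6% ± 0.896 of coding ones. Replicate 3 had the highest member share within 100 bp, 30.3%, and still lay below each coding value. These positional differences were not tested.

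The positions around all members showed one rise just upstream, but not there alone. In bins of 100 bp, the strongest peaks of the replicates gave 8.40 ± 1.12, 9.90 ± 1.29 and 9.34 ± 1.29 summits per 1000 TSSs (mean ± SD, n = 3) in the 3 bins just before the TSS. The first bin after it had 5.23 ± 1.80, and 100 to 300 bp downstream the value was 3.55. It rose again to 9.34 ± 2.26 at 500 to 600 bp downstream, and bins further out reached 9.71 ± 1.41 (1400 to 1500 bp upstream) and 9.90 ± 0.647 (1200 to 1300 bp downstream). Bins over 1000 bp out can fall on coding promoters, and in members over 5000 bp from coding TSSs those 2 outer bins had 2.38 ± 2.38 and 4.36 ± 1.37. In the same members the 2 bins just before the TSS had 7.13 ± 2.06 and 8.32 ± 2.06, and the bin at 500 to 600 bp downstream 8.72 ± 2.48. The next 2 downstream bins, 600 to 700 and 700 to 800 bp, had 7.53 ± 1.37 and 7.13 ± 3.15 in these members. Those 2 outer bins were picked as high among all members, and another, 1100 to 1200 bp upstream, had 6.34 ± 0.687. Far from coding genes the upstream rise was thus matched by bins from 500 to 800 bp downstream, and 1 bin further out came near it.

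**Figure D3:**
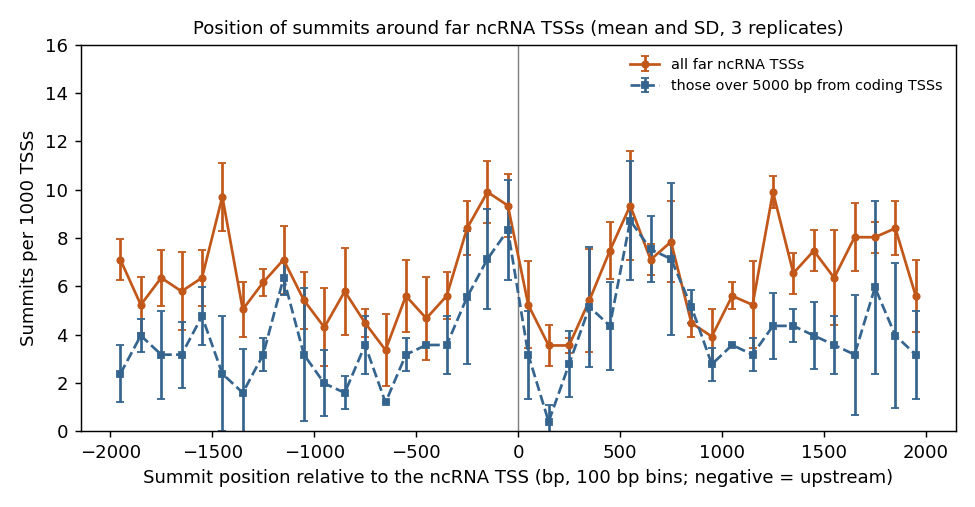
Summits per 1000 TSSs in 100 bp bins from 2000 bp upstream to 2000 bp downstream of far ncRNA TSSs, for all members (orange) and those over 5000 bp from coding TSSs (blue); points are means and error bars SDs of 3 replicates. Both lines rise in the bins before the TSS, dip 100 to 300 bp after it and rise again at 500 to 600 bp.

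The second rise led to a count at the other end of the genes, which was added after the data were seen. Among members of 600 bp or longer (1103), the 300 bp outside the 5′ end held a summit in 2.96% ± 0.277 of cases (SD, n = 3) and the 300 bp inside it in 1.48% ± 0.105. The 300 bp outside the 3′ end held one in 4.05% ± 0.456 and those inside it in 1.81% ± 0.327. The side beyond the 3′ end was thus above that before the 5′ end in every replicate, at 4.53 against 3.26%, 3.63 against 2.90% and 3.99 against 2.72%. The 3′ end itself is not bound by the distance rule, and in the 943 genes whose 3′ end also lay over 1000 bp from coding TSSs the values were 2.62% ± 0.603 beyond the 3′ end and 2.33% ± 0.212 before the 5′ end. Those ranges overlapped, with replicate 2 at 2.12 against 2.33%. In both sets the flanks outside the gene exceeded the first and last 300 bp within it.

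Peaks at members were neither the strongest nor the weakest of the IDR list. The signal value, a strength that the authors' caller gave each peak and that is comparable only within a list, had a median of 245 over the 108 member summits (quartiles 185 and 410). The 4694 summits at coding promoters had a median of 294 (207 and 443), and the 2675 elsewhere had 230 (176 and 340). Among the 748 strongest peaks of the list were 13 of the 108 (12.0%), 12.0% of those at coding promoters and 6.43% of those elsewhere. These are shares of 1 list, with no spread. Being found among the strongest peaks of all 3 replicates followed the same order, at 54.6% of member summits, 66.8% at coding promoters and 48.6% elsewhere.

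**Figure D4:**
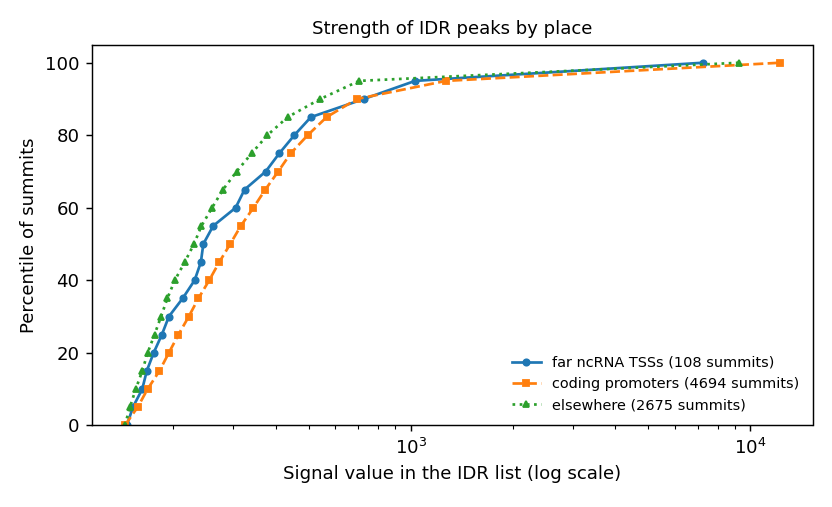
Percentiles of the signal value of IDR peaks (log scale) at far ncRNA TSSs (108 summits), coding promoters (4694) and elsewhere (2675). The far ncRNA line lies between the others over most of its range and meets that of coding promoters near its upper end.

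The strongest member peak was that of CR45433 (FBgn0266982, 3L 19861458 to 19861869, plus strand), an intergenic gene of 1 exon, 8100 bp from the TSS of Rab8, which encodes a small GTPase of vesicle traffic. Its signal of 7234 made it rank 37 in the IDR list, and it ranked 51, 38 and 24 in replicates 1, 2 and 3. The summit lay 98 bp upstream, and in the replicates 97, 91 and 98 bp upstream. The peak was thus high and in nearly the same place every time.

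The second was at the antisense-named gene CR43469 (FBgn0263446, 2R 12872756 to 12875087), 2256 bp from the TSS of Balat. Its signal was 4909, rank 99, with replicate ranks of 114, 72 and 80, and its summit lay 278 bp upstream. After it the signal dropped steeply: CR31044 had 1671, CR44339, whose nearest coding TSS is that of the Polycomb group gene Psc, had 1487, and CR45595 had 1247. CR46036, inside the chromatin remodelling gene osa on the opposite strand, had 1071. Each of these 4 peaks ranked between 204 and 440 in every replicate. The IDR list was derived for reproducibility across these replicates, so such agreement, here and at the other strong peaks, is partly built in.

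The next members had signals from 942.9 down to 500. They were CR45352, CR42657, CR44676, CR44380, CR31840, CR44867, CR46102, roX1, CR46535, CR44276, CR44478, CR44222, CR45541 and CR44700. CR42657 lay beside nej, which encodes the histone acetyltransferase CBP, CR46102 inside the lipophorin receptor gene LpR2, CR44478 inside Socs36E, an inhibitor of JAK/STAT signalling, and CR44222 inside kis, a trithorax group gene. All 20 of the strongest had a summit within 100 bp among the strongest peaks of every replicate. CR44867 was uneven, with ranks of 535, 5113 and 674 in replicates 1, 2 and 3. No function is stated here for members known only by a CR number.

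**Figure D5:**
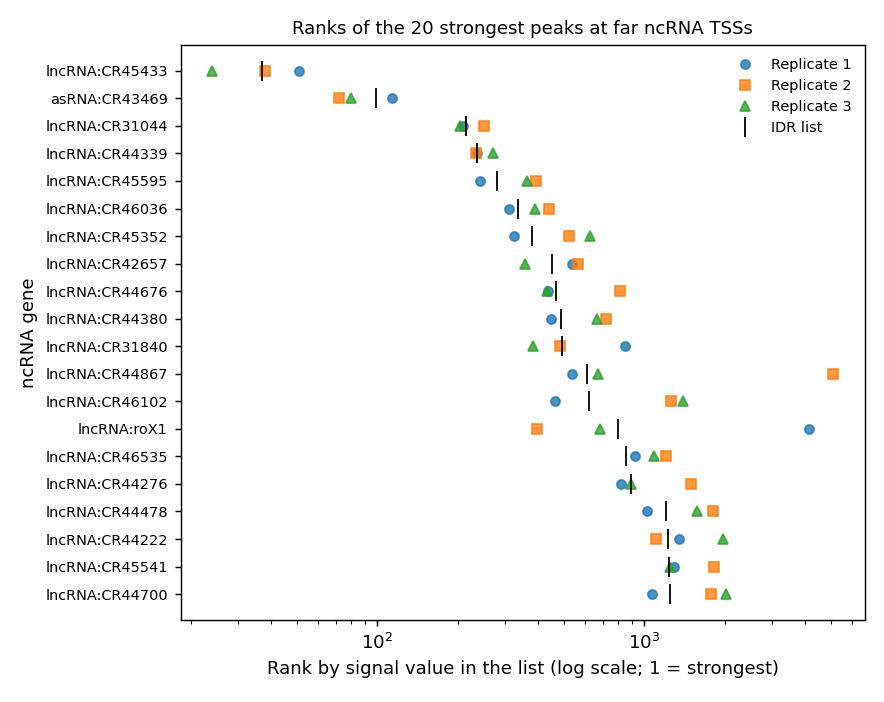
Rank by signal value (log scale, 1 is the strongest) of the 20 strongest IDR peaks at far ncRNA TSSs, in each replicate list (coloured symbols, the summit within 100 bp) and in the IDR list (black ticks). Ranks agree closely for the first members and spread for CR44867, at 5113 in replicate 2, and roX1, at 4136 in replicate 1.

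Some windows shared a peak. A summit at 3R 16209021 with a signal of 181.5 lay within 500 bp of the TSSs of CR45637, CR45638, CR45639 and CR45640, at 404 bp upstream, 463 bp downstream, 86 bp upstream and 348 bp downstream. Another at 3L 11247032 with a signal of 162.7 served CR44713 and CR44714. These 6 members therefore count as 2 peaks. Summits of members lay at least 687 bp from any coding TSS, with a median of 3326 bp, and 3 lay 1000 bp or less away. None lay within 500 bp of the 5′ end of a tRNA, snRNA or rRNA gene, a pseudogene or a miRNA hairpin, and 1 lay that near a snoRNA gene.

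A list of ncRNA genes with a known name or role, made with earlier results of these data known, had 26 entries, of which 7SLRNA matched 2 genes. Of the genes matched, 18 were members and 6 had a coding TSS within 1000 bp, namely sphinx, Uhg1, Uhg2, Uhg4, Uhg5 and Uhg8. For 3 entries (msa, bft and VILMIR) there was no gene of that symbol among the ncRNA records. The member CR43314, which holds mir-bft, had no IDR summit and was not counted for bft, because entries were matched by symbol only. Among the 18 members, 6 had an IDR summit (33.3%), where all members had 5.99% and all ncRNA and protein-coding genes 35.3%. A pooled summit lay at 11 of the 18, where all members had 25.4% and all genes 52.9%. The share of these known genes was thus above that of members but near that of all genes.

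Both dosage compensation RNAs were among the 6. roX1 (FBgn0019661, X 3857230 to 3862697, minus strand) had an IDR signal of 612.5, rank 795, with the summit 17 bp downstream of its TSS. The strongest peaks within its window ranked 1361, 396 and 682 in replicates 1, 2 and 3, although in replicate 1 the peak within 100 bp of the IDR summit ranked only 4136. roX2 (X 11579065 to 11580432, plus strand) had 240.6, with the summit 25 bp upstream and ranks of 5432, 3258 and 3766. The peak at roX2 was thus the weaker of the pair in every replicate.

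The other 4 served different kinds of RNA. flam (X 21631891 to 21790731, plus strand), the piRNA precursor, had a signal of 401.9, with the summit 168 bp upstream and ranks of 1577, 2632 and 2902. Hsromega (3R 21296127 to 21317836, plus strand), a heat-inducible nuclear RNA that organizes omega speckles, had 368.8, with the summit 119 bp downstream. In its window the strongest peaks ranked 1544, 2515 and 2012 in replicates 1, 2 and 3. They lay 180 bp downstream, 128 bp upstream and 164 bp upstream, so their side differed. Within 100 bp of the IDR summit of Hsromega the ranks were 1544, 2594 and 3440. Uhg3 (2L 20647533 to 20648848), whose introns hold snoRNAs, had 262.3, with the summit 48 bp upstream and ranks of 3665, 4758 and 3650. TS2 had 240.7 and ranks of 4542, 6077 and 3822. All 6 were thus within the strongest 7477 peaks of every replicate.

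The remaining 12 known members had no IDR summit. No summit of any list lay in the windows of bxd and iab8, non-coding transcripts of the bithorax complex, of CRG, of cherub, or of either 7SLRNA gene, which encode the RNA of the signal recognition particle. Peaks outside the IDR list occurred at yar, with ranks of 9280 and 17586 in replicates 1 and 2, at acal, with 11721 and 11665 in replicates 2 and 3, and at RNaseMRP:RNA, with 16225, 11447 and 7131. RNaseP:RNA had 13486 and 9791 in replicates 2 and 3. let7C, the common precursor of let-7, mir-100 and mir-125, had a rank of 18941 in replicate 3 only, and Uhg7 had 21563 in replicate 2 only. Of these, RNaseMRP:RNA alone had a peak in every replicate.

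Hosts of small RNAs held peaks more often than other members, from small numbers. Of the 1785 members, 38 contained a miRNA or snoRNA gene on the same strand, and their share with a summit was 15.8, 13.2 and 23.7% in replicates 1, 2 and 3, a mean of 17.5% ± 5.48 (SD, n = 3). The 1747 other members had 5.61% ± 0.525. The difference of 11.9 ± 5.80 points was positive in all 3 replicates (exact permutation p = 0.25, the smallest possible), and 11 of the 38 hosts had no summit in any list. In the whole lists, 13 hosts had a summit in every replicate and 27 in at least 1, against 226 and 708 of all 1785 members. Of all members, 1056 had no summit in any list. By kind, 5 of 33 miRNA hosts and 1 of 5 snoRNA hosts had an IDR summit.

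The 6 bound hosts were led by CR31044 (3R 29214562 to 29219667, plus strand), the transcript that holds mir-279 and mir-996, which are known for limiting the formation of carbon dioxide sensing neurons. Its signal was 1671, with the summit 126 bp upstream of the TSS and 122, 121 and 127 bp upstream in the replicates, where it ranked 209, 251 and 204. Hsromega, with mir-4951, and Uhg3 are given above. CR43651, the host of mir-14, a repressor of cell death, had 283.8, with window ranks of 5476, 2273 and 1606. In replicate 1 that peak lay 100 bp downstream of the TSS, whereas the IDR summit lay 63 bp upstream. No summit in the whole list of replicate 1 lay within 100 bp of the IDR summit of CR43651. CR43650, the host of mir-8, a fly relative of the vertebrate mir-200 family, had 158.3 and ranks of 8682, 5073 and 7238. CR43334 (3L 628435 to 643900), the host of bantam (mir-ban), which promotes growth and blocks cell death, had 150.6 and ranks of 5737, 16214 and 5926. CR31044 thus stood far above the others, and the last 2 were outside the strongest 7477 peaks in 1 replicate each.

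Further hosts fell short of the IDR list. CR43857, the host of mir-275, ranked 7212, 14965 and 6896 in replicates 1, 2 and 3, and CR42651, the host of mir-10, ranked 7536, 18802 and 6722. Both were chosen for mention after their values were seen. In each, replicate 2 had the weakest peak.

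Within 100 bp of member summits, the DRE, motif 1 and the E-box had shares nearer to those of peaks away from coding promoters than to those at coding promoters. Motifs were searched as fixed letters on both strands. The DRE (TATCGATA), bound by the housekeeping promoter factor DREF, was in 2 of 103 distinct member summit windows (1.94%), in 13.8% of those at coding promoters and in 1.20% of IDR summits elsewhere. Motif 1 of M1BP (GGTCACACT) was in 1.94%, against 8.69% at coding promoters and 0.336% elsewhere, and one of its matches is that printed for roX2. The E-box CAGCTG was in 4.85%, against 14.7% and 5.20%. A match is only a match of letters, not a shown binding site.

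The other letters were spread differently. GAGAG, bound by GAGA factor, was in 17.5% of member windows, 17.6% at coding promoters and 23.3% elsewhere. TATAAA, the TATA box, was in 44.7%, against 34.6% and 38.8%. CAGGTA, bound by the early activator Zelda, was in 0.971%, or 1 window, against 3.64% and 4.71%. Over the TSSs of all 13968 coding genes the shares were 7.83% for the DRE, 5.28% for motif 1, 13.8% for the E-box, 22.5% for GAGAG, 29.2% for TATAAA and 4.3% for CAGGTA. Over the 1678 member TSSs without an IDR summit they were 0.596, 0.179, 7.93, 21.0, 23.6 and 4.29% in that order. Median GC content was 33.3% at member summits, 35.8% at coding promoter summits, 33.3% at IDR summits elsewhere and 41.3% at member TSSs without a summit. Whether base composition sets the share of TATAAA was not tested. Those TSS windows are centred on the start site and the others on the summit.

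A 7-base word was taken from the whole IDR list after the data were seen. TGCCAAC, or GTTGGCA on the other strand, was within 50 bp of 41.3% of the 300 strongest summits and of 1.70% of the 3000 weakest, values by which it was chosen. Within 100 bp it was at 8 of the 108 member summits (7.41%), at 6.33% of those at coding promoters, at 3.55% elsewhere, at 4.29% of member TSSs without an IDR summit and at 4.51% of coding TSSs. Among the 748 strongest peaks it was at 2 of 13 member summits (15.4%), those of CR45433 and CR43469, against 27.4% at coding promoters and 12.2% elsewhere. Both peaks, at ranks 37 and 99, are among the 300 by which the word was chosen, so their match and these shares only describe that choice. The other member peaks that held it had signals from 161.9 to 200.9. They were those of CR45808, CR44218, CR44417, CR45103, asRNA:CR44114 and the 4 genes from CR45637 to CR45640. The member peaks with this word were therefore the 2 strongest and 6 of the weaker ones, and CR31044, the third strongest, did not hold it.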

How the data were processed

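ChIP-seq of Trem-eGFP was analysed in 3 biological replicates of 1 group. The deposited peak lists (dm6, per the labels) give each peak's position, its signal value and a −log10 q-value as the authors' caller wrote them. The q-values were not used. There were 30000 peaks per replicate and in the pooled list, and 7477 in the IDR list. Which aligner, caller and IDR settings made them is not given in the sources used here. Read numbers were not analysed, so the depth is unknown, no interval that needs it is given, and replicates were compared by equal numbers of their strongest peaks.

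Genes came from Ensembl release 115 and sequence from RefSeq's genome of that assembly. A promoter held a peak when a summit lay within 500 bp of the gene's 5′ end. Shares were compared within replicates by an exact paired permutation test (sign flips), with Benjamini-Hochberg adjustment over 6 differences and a threshold of 0.05. Counting was checked on simulated data. Members of the far ncRNA set on unplaced sequence (9 genes) were left out. Genes named are the 20 with the strongest IDR summits, those of a list of known ncRNAs, bound hosts of small RNAs, and members strong in every replicate but absent from the IDR list, of which there were none. Others are named as sharing a peak, holding the 7-base word, or as said in the text. Members and lists were chosen with earlier results of these data known. Python 3.11.15, numpy 2.4.6, pandas 2.3.3 and matplotlib 3.10.9 were used. Alternatives covered window width, the distance rule, transcript starts, list length, the peak interval, gene length and leaving out each replicate.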

Additional observations from a re-analysis of the deposited data

How the results depend on the processing

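The mean of each of the 6 differences in share kept its sign under every alternative computed for it, but sizes moved. Member minus far sequence, 3.91 points, was 11.5 in the whole replicate lists, 1.90 in their 3738 strongest peaks, 2.20 within 250 bp and 6.26 within 1000 bp. Hosts minus other members, 11.9 points, ran from 6.25 in the 3738 strongest peaks to 24.7 in the whole lists. Intergenic minus intragenic, 1.5 points, was 1.66 ± 3.94 in the whole lists (exact permutation p = 0.75), and its replicates did not share 1 sign there, within 250 or 1000 bp, or with miRNA records kept (p = 0.5 in each, exact permutation). The number of members with an IDR summit was 107, and it was 58 within 250 bp, 174 within 1000 bp, 69 with members over 2000 bp from coding TSSs, 48 in the 3738 strongest IDR peaks, 454 in the pooled list and 42 when the peak interval had to cover the TSS. Leaving out each replicate gave 64 to 73, but those counts also require a strong summit in every remaining replicate, and the same requirement over all 3 gave 59. The upstream share of 57.9% was 70.7% within 250 bp, 50.0% within 1000 bp, 61.6% and 56.5% for members over 500 and over 2000 bp away, 60.4% in the stronger IDR peaks, 56.4% in the pooled list, 58.9 to 61.1% without each replicate, and 56.1% with miRNA records kept, an alternative chosen after seeing the data. The median position of -86 bp was -100 bp within 250 bp, -1.0 bp within 1000 bp, -102 and -68 bp for members over 500 and over 2000 bp away, -107 bp in the stronger IDR peaks, -57.5 bp in the pooled list and -96 to -71.5 bp without each replicate. The cause of these shifts was not tested beyond the change of window or list itself. Of 106 values, 83 did not move past the limits set for this tally and 23 did. The tally set the counts without a replicate against 107, not 59. It therefore took the 64 without replicate 1 as moved, and the 72 and 73 as not moved. No paired analysis was possible because all samples belong to 1 group, that is, none between groups of samples, while classes of genes were compared within each replicate. Depth, and with it the weakest peak each list could hold, is unknown.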
